A study of Mus musculus with 21 samples.

Results

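Expression of 6 autosomal genes that lie outside the chromosome carrying the targeted Apoe locus (chromosome 7) was examined in the forebrains of 21 mice: Nnt, Dctd, Wdfy1, Capn11, Gm16867 and Gm27177. Their symbols matched 7 Ensembl identifiers, because Nnt has 2, out of 55401 identifiers in the deposited table (37538 with any count). All 7 identifiers had counts. The genes were chosen by their differences in level between the APOE lines in these same mice, so differences between lines are a description: calls are given to show their size, with no p and no weight as evidence. The comparisons of mice with and without mutant tau are tested, although they share the same mice.

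The parental groups E2H, E3H and E4H held 3 mice each. They were homozygous for human APOE2, APOE3 or APOE4 in place of mouse Apoe, were on a C57BL6 background and had no tau transgene. The tau groups, named PS/E2H, PS/E3H and PS/E4H, had 4 mice each, homozygous for the same APOE alleles and heterozygous for the PS19 transgene, human tau with the P301S mutation driven by the mouse prion protein promoter. PS19 mice were kept on a B6/C3H background, so the PS groups carried a mixed background that the parental groups did not, and they were bred by crossing to an APOE line and then back to it. The PS mice were killed at hindlimb paralysis, whatever their age, and the parental mice at 9 to 10 months. Tau genotype, breeding history, age and paralysis therefore cannot be told apart in a comparison of PS and parental mice, and in the comparisons of lines the APOE allele cannot be told apart from the colony that carried it.

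Poly(A) RNA was read with a stranded kit, to a depth of 59265459 to 75932183 counts in genes per mouse (median 63751715). Of 27 pairs of mice from the same group, 0 had identical counts, and the chi-square statistic per gene was 19.2 to 79.9 in every pair, far above sampling noise. A panel of 5 neuron markers summed to 582 to 800 FPKM per mouse, with none at 0, and 5 pituitary markers summed to 7.62 FPKM at most. In 17 libraries Xist (12188 to 36358 counts) exceeded Ddx3y (0 to 21 counts), and in 4 libraries Ddx3y (2517 to 4246 counts) exceeded Xist (164 to 189 counts). Those 4 were mouse 3 of E4H, mouse 2 of PS/E2H and mice 1 and 4 of PS/E4H. The methods give the sexes the other way round, with most mice named as male. For the members, differences that were called between a pair of groups, and rest on groups with these libraries, are given with and without them.

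The 6 genes belong to unrelated pathways. Nnt encodes nicotinamide nucleotide transhydrogenase, an enzyme of the inner mitochondrial membrane that uses the proton gradient to make NADPH from NADH, and this NADPH feeds the glutathione and thioredoxin systems that clear peroxides. Dctd encodes dCMP deaminase, which turns dCMP into dUMP, the substrate of thymidylate synthase. Wdfy1 encodes a protein of early endosomes with a FYVE domain and WD repeats that takes part in signaling from the toll-like receptors TLR3 and TLR4 through the adaptor TRIF. Capn11 belongs to the calpains, calcium-dependent cysteine proteases, and is known mainly from the testis. Gm16867 and Gm27177 are predicted genes without an established function. In bulk tissue, fewer cells of a type and less RNA per cell cannot be told apart.

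Levels per mouse are given as CPM, read counts divided by library size with TMM factors over all mice, and comparisons between genes use FPKM, which accounts for length. On the FPKM scale the median level over the 21 mice was highest for Wdfy1 (7.02), followed by the first Nnt identifier (2.45), Dctd (1.77), Gm16867 (1.34), Gm27177 (0.875), the second Nnt identifier (0.426) and Capn11 (0.109). The ranges over the mice overlapped between every pair of neighbours in this order: Wdfy1 ranged from 2.30 to 9.54 FPKM, the first Nnt identifier from 0.682 to 5.03, Dctd from 0.794 to 2.54 and Gm16867 from 0.0184 to 2.53. Capn11 ranged from 0 to 1.61 FPKM and was the only member besides the second Nnt identifier listed at 0 in some mouse.

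A gene was called between groups at an adjusted p below 0.05 and a fold change of at least 2, by edgeR's quasi-likelihood test over all genes. Between E2H and E3H mice, 5 of the 7 identifiers were called: Nnt by its first identifier and Capn11 were higher in E2H, and the second Nnt identifier, Gm16867 and Gm27177 were lower. Over all genes 0.144% were called in that comparison. Between E4H and E3H mice, 2 of 7 were called, Dctd and Wdfy1, both lower in E4H (0.1% of all genes). Between E4H and E2H mice, 5 of 7 were called (0.187% of all genes). In the mice with tau, PS/E2H against PS/E3H gave 3 calls among the 6 identifiers tested (0.108%), with 1 of 7 between PS/E4H and PS/E3H (0.0197%) and 3 of 6 between PS/E4H and PS/E2H (0.109%). Ranges that do not overlap were found for 23.3, 12.7 and 21.3% of all genes in the 3 comparisons without tau, in the same order, and for 5.37, 3.86 and 6.83% in those with tau. How many of all genes set every mouse of 1 line, with and without tau, apart from all other mice was not counted. These contrasts chose the genes, so nothing is read from the counts or from such separations.

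**Figure D1:**
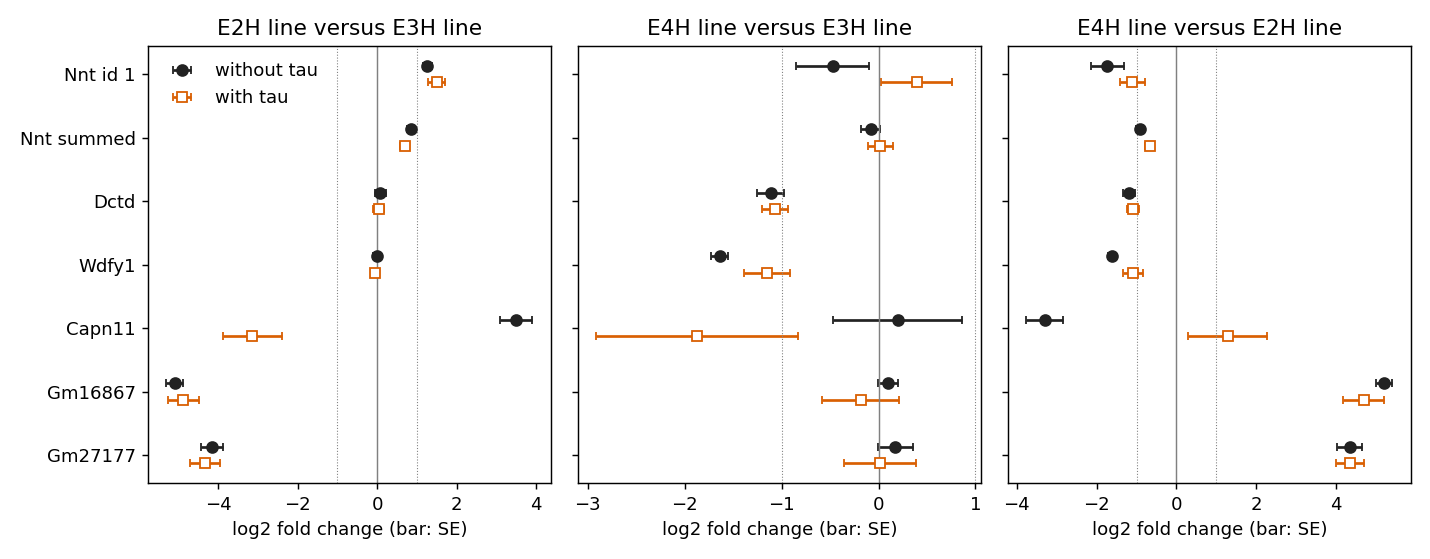
Log2 fold change (x axis) between APOE lines for each identifier or sum (y axis), with bars for 1 SE, filled circles for mice without tau and open squares for mice with tau; dotted lines mark 2-fold and each panel has its own x axis. Gm16867 and Gm27177 sit at -5.10 and -4.16 in E2H against E3H and stay near there with tau, Dctd sits near -1 in E4H, and Capn11 moves from 3.50 to -3.14; the second Nnt identifier, with groups at 0, is not drawn.

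The 2 Nnt identifiers overlap on the minus strand of chromosome 13 in GRCm38. The first (ENSMUSG00000025453) spans chr13:119335448-119408997 and the second (ENSMUSG00000116207) spans chr13:119335528-119408952. In the GENCODE M21 annotation the second has 1 transcript, of 17 exons and 3339 bases, and every one of its bases lies within the exons of a 17-exon transcript of the first, with the same coding part. All 3290 windows of 50 bases in the second identifier's transcript also occurred in the first, and 46.9% of the first's 7032 windows occurred in another gene. Another transcript of the first identifier, of 15 exons, differs by leaving out exons 8 and 9 (342 bases). C57BL/6J mice are known to carry a deletion of several coding exons in Nnt, and GRCm38 is the genome of that strain, so these models describe the deleted form and the counts do not say which allele was read. The sequence where the 15-exon transcript parts from the 17-exon transcripts is shown. Reads over it, like reads inside exons 8 and 9, separate the transcript that skips the exons from those that keep them. They do not separate the 2 identifiers, since each has a 17-exon transcript that keeps the exons. The exons are numbered in these models, which already lack the deleted exons. Lower case is the end of exon 7 and capitals are the first 20 bases of the exon that follows it, 5′ to 3′ on the minus strand, from the GENCODE M21 transcripts:
Exons 8 and 9 skipped: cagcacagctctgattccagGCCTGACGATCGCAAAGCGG
Exons 8 and 9 kept: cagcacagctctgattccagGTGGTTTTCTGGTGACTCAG
Exon 8 lies at chr13:119374629-119374774 (146 bases) and exon 9 at chr13:119372396-119372591 (196 bases), both coding. Exon 8 is given whole, since it is the first stretch found in the kept form and not in the skipped one, and no part of it is in capitals:
Nnt exon 8: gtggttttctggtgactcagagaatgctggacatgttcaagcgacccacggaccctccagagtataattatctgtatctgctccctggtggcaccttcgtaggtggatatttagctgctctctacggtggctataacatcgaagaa

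By the first identifier, Nnt was at 36.4, 37.5 and 38.6 CPM in the E2H mice, at 17.6, 13.3 and 15.9 CPM in the E3H mice and at 5.98, 20.7 and 6.90 CPM in the E4H mice. The PS/E2H mice were at 35.6, 30.9, 36.4 and 35.5 CPM, the PS/E3H mice at 10.4, 8.03, 18.0 and 12.4 CPM and the PS/E4H mice at 19.9, 17.5, 5.38 and 21.6 CPM. All 7 mice with APOE2 were above all 14 others, while the mice with APOE3 and APOE4 overlapped widely. The E2H mean was 2.40-fold that of E3H (log2 fold change 1.26 ± 0.11, SE), and the PS/E2H mean was 2.82-fold that of PS/E3H (1.5 ± 0.20). Without the PS/E2H library with more Ddx3y the latter was 1.55 ± 0.22. Against E2H, E4H was at -1.74 ± 0.41, which was not called.

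The second identifier had no counts in any of the 7 mice with APOE2. It was at 4.11, 8.79 and 2.78 CPM in E3H and at 12.7, 1.26 and 11.4 CPM in E4H. With tau it was at 16.0, 11.4, 0 and 9.11 CPM in PS/E3H and at 5.72, 1.58, 15 and 0 CPM in PS/E4H. The APOE2 mice were below every mouse without tau of the other lines, but 1 PS/E3H mouse and 1 PS/E4H mouse were also at 0. Counting 3 reads per library as the limit that a count of 0 allows, the E2H level of the second identifier was at least 117-fold lower than that of E3H and at least 189-fold lower than that of E4H. The same bounds were 188-fold for PS/E2H against PS/E3H and 115-fold against PS/E4H, or 50.3-fold without mouse 3 of PS/E4H. Without mouse 2 of E3H the first bound was 77.0-fold. These limits cover counting error only. All windows of the second identifier also occur in the first, so a count of 0 can reflect which identifier the reads were assigned to, which was not tested. The bounds therefore do not describe the level of Nnt RNA. Summed over both identifiers, E2H was 1.80-fold above E3H, as given below.

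Within the APOE3 and APOE4 lines the split between the identifiers varied from mouse to mouse. The second held 18.9, 39.8 and 14.9% of the Nnt counts in the E3H mice and 67.9, 5.75 and 62.4% in the E4H mice. It held 60.6, 58.7, 0 and 42.3% in the PS/E3H mice and 22.3, 8.29, 73.6 and 0% in the PS/E4H mice. In E4H the mouse highest by the first identifier (20.7 CPM) was lowest by the second (1.26 CPM), but this was not so in every group: mouse 1 of PS/E4H was above mouse 2 by both. The coefficient of variation in E4H was 73.6% for the first identifier, 74.1% for the second and 10.2% for their sum. In PS/E4H it was 45.6%, 121% and 13%. The models share their exons, so reads inside them can be assigned to either identifier, and the part this had in the split was not tested.

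Summed over both identifiers, Nnt was at 36.4, 37.5 and 38.6 CPM in E2H, at 21.7, 22.1 and 18.6 CPM in E3H and at 18.7, 21.9 and 18.3 CPM in E4H. The PS/E2H mice stayed at 30.9 to 36.4 CPM, the PS/E3H mice were at 26.4, 19.4, 18.0 and 21.5 CPM and the PS/E4H mice at 25.6, 19.1, 20.4 and 21.6 CPM. Every APOE2 mouse was again above every other mouse, and APOE3 and APOE4 overlapped. E2H was 1.80-fold above E3H (log2 fold change 0.85 ± 0.10) and 1.90-fold above E4H. PS/E2H was 1.61-fold above PS/E3H (0.69 ± 0.12) and 1.60-fold above PS/E4H. None of these reached 2-fold, so the sum was called in no comparison. E4H differed from E3H by -0.08 ± 0.10 and PS/E4H from PS/E3H by 0.02 ± 0.13. The deposited FPKM values, summed in the same way, were 4.76 ± 0.27 in E2H, 3.60 ± 0.74 in E3H and 3.82 ± 0.66 in E4H (SD, n = 3). In the PS mice the FPKM sums overlapped, at 3.91 to 4.80 in PS/E2H, 2.45 to 5.62 in PS/E3H and 2.67 to 4.72 in PS/E4H. The separation of the APOE2 mice with tau thus held for CPM and not for FPKM. The identifiers differed in FPKM per CPM. In mouse 4 of PS/E3H the first was at 12.4 CPM and 1.62 FPKM, and the second at 9.11 CPM and 2.51 FPKM. The FPKM sum therefore moves with the split of reads between the identifiers, and cannot decide whether Nnt as a whole separated the lines.

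**Figure D2:**
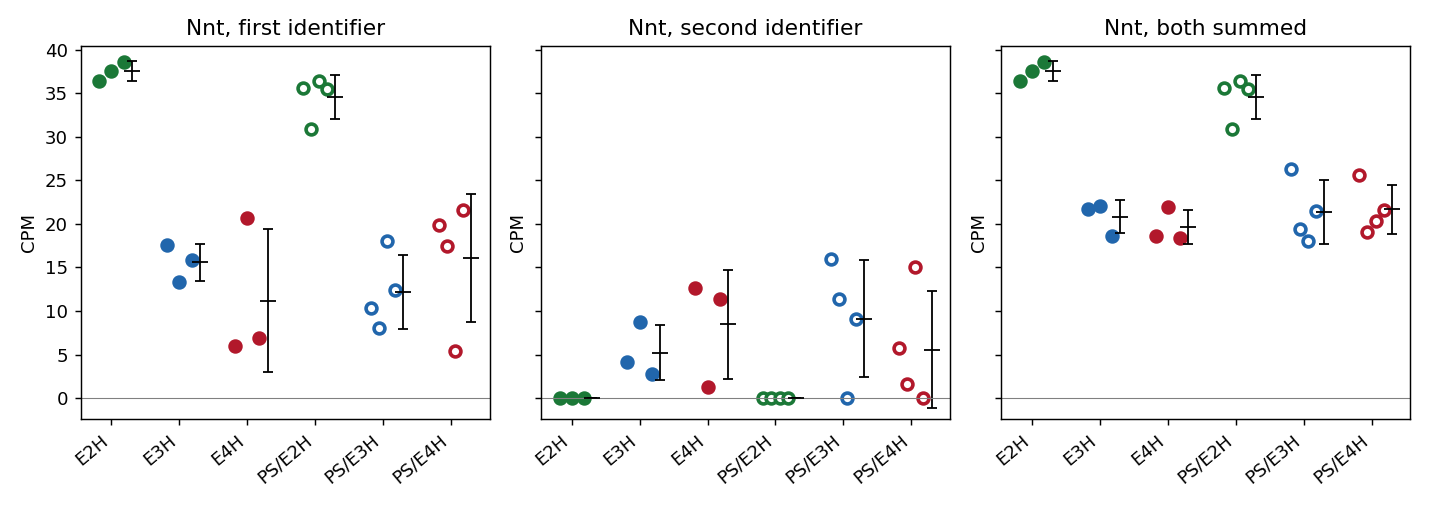
CPM of Nnt (y axis) by its first identifier, its second identifier and their sum, in each group (x axis); filled circles are mice without tau, open circles mice with tau, and bars the mean ± SD. The APOE2 mice are at 0 by the second identifier and highest by the sum (30.9 to 38.6 CPM), and the wide spread of the APOE3 and APOE4 mice in each single identifier narrows in the sum.

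Dctd (ENSMUSG00000031562; chr8:48099092-48153233, plus strand) was low in both groups with APOE4. It was at 9.30, 9.52 and 7.57 CPM in E2H, at 8.38, 8.90 and 7.54 CPM in E3H and at 4.08, 3.92 and 3.47 CPM in E4H. With tau it was at 7.20, 6.82, 8.04 and 5.50 CPM in PS/E2H, at 6.01, 7.44, 6.29 and 7.09 CPM in PS/E3H and at 3.33, 3.03, 3.28 and 3.22 CPM in PS/E4H. All 7 APOE4 mice were below all 14 others, and the APOE2 and APOE3 mice overlapped. The E4H level was 2.16-fold below E3H (log2 fold change -1.11 ± 0.14) and 2.29-fold below E2H (-1.19 ± 0.15). PS/E4H was 2.09-fold below PS/E3H (-1.06 ± 0.14) and 2.14-fold below PS/E2H (-1.10 ± 0.15). Without the libraries with more Ddx3y, Dctd was at -1.05 ± 0.15 in E4H against E3H, still called. It was at -1.14 ± 0.18 in E4H against E2H, -1.09 ± 0.18 in PS/E4H against PS/E3H and -1.13 ± 0.23 in PS/E4H against PS/E2H, no longer called. E2H and E3H differed by 0.08 ± 0.14. None of Dctd's 3499 windows of 50 bases occurred in another gene of the annotation.

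Wdfy1 (ENSMUSG00000073643; chr1:79702262-79776143, minus strand) was also low with APOE4. It was at 56.1, 51.2 and 49.8 CPM in E2H, at 47.1, 55.1 and 56.0 CPM in E3H and at 16.1, 18.2 and 16.4 CPM in E4H. With tau it was at 59.4, 48.2, 63.2 and 56.3 CPM in PS/E2H, at 51.9, 60.9, 64.4 and 58.4 CPM in PS/E3H and at 17.7, 33.8, 38.2 and 16.7 CPM in PS/E4H. All 7 APOE4 mice were below all others, but the PS/E4H mice fell into a low and a high pair, with a gap from 17.7 to 33.8 CPM. The low pair were the 2 libraries of that group in which Ddx3y exceeded Xist. In E4H, however, the library with more Ddx3y (16.4 CPM) lay between the other 2 (16.1 and 18.2 CPM). E4H was 3.12-fold below E3H (log2 fold change -1.64 ± 0.09) and 3.08-fold below E2H (-1.62 ± 0.09), and at -1.62 ± 0.10 and -1.61 ± 0.11 without the library with more Ddx3y. PS/E4H was 2.22-fold below PS/E3H (-1.15 ± 0.24) and 2.13-fold below PS/E2H (-1.09 ± 0.24), and neither was called.

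Over the 21 mice, log2 CPM of Dctd and Wdfy1 correlated at r = 0.80. These mice share their lines, so this is a description of the line pattern. The genes whose pattern was most like that of Dctd among 22853 genes, by Pearson correlation of log2 CPM over the 21 mice, were Gm13601 (0.92), Gm44090 (0.88) and Nat8f5 (0.86). Those most like Wdfy1 were Gm44090 (0.85), Gm15726 (0.84) and Gm13601 (0.81), so Gm13601 and Gm44090 stood in both lists.

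**Figure D3:**
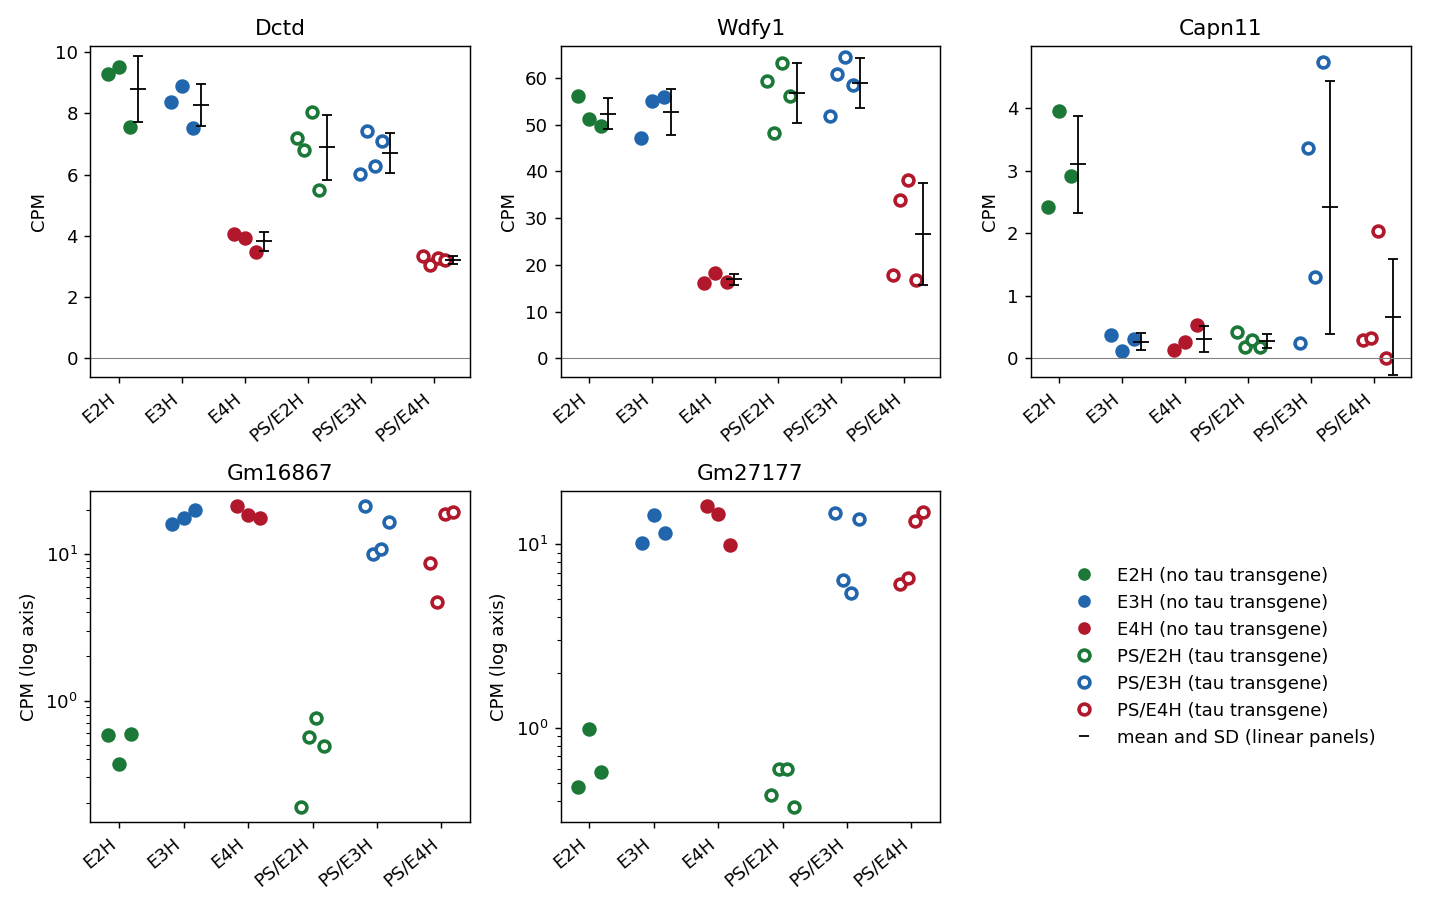
CPM (y axis) of Dctd, Wdfy1, Capn11, Gm16867 and Gm27177 per mouse in each group (x axis), filled without and open with tau; bars are the mean ± SD in the linear panels and the y axes of Gm16867 and Gm27177 are logarithmic. Dctd and Wdfy1 are low in the APOE4 groups, and Gm16867 and Gm27177 are below 1 CPM in the APOE2 groups. Capn11 is high in E2H, in 3 of 4 PS/E3H mice and in 1 PS/E4H mouse (2.03 CPM).

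Gm16867 (ENSMUSG00000093954; chr14:69363504-69503362) and Gm27177 (ENSMUSG00000098975; chr14:69582164-69683286) lie on the minus strand, 78802 bases apart. Each overlaps 1 of a pair of copies of Entpd4, a gene for an enzyme that hydrolyses nucleotides in the Golgi. Entpd4 and Entpd4b are on the plus strand, are 30097 bases each and start 218250 bases apart, and all of their 8206 windows of 50 bases are shared. Gm16867 overlaps Entpd4 by 3767 bases and Gm27177 overlaps Entpd4b by 3357 bases. All 6853 windows of Gm27177 and 87.5% of those of Gm16867 occurred in the other of the pair. An exon of 102 bases, coding in Gm16867, is shown because it stands in both genes with 0 mismatches, 218275 bases apart, so that reads within it cannot be told apart. It is at chr14:69421898-69421999 in Gm16867 and at chr14:69640173-69640274 in Gm27177, and is written 5′ to 3′ on the minus strand from the GENCODE M21 transcripts, with no part in capitals:
Gm16867 exon: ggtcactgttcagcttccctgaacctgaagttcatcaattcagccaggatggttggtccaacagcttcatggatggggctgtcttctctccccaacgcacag
Gm27177 exon: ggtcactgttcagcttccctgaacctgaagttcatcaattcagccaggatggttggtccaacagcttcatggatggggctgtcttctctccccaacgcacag
It is held by 4 of the 7 transcripts of Gm16867 and 4 of the 5 of Gm27177. The first coding exon of Gm16867 (chr14:69502982-69503191) holds none of its 161 windows in Gm27177, and all of them in Slc25a37, a gene for a mitochondrial iron carrier. The split of counts between Gm16867 and Gm27177 is therefore uncertain.

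Gm16867 was nearly silent in every mouse with APOE2. It was at 0.584, 0.371 and 0.592 CPM in E2H and at 0.187, 0.564, 0.763 and 0.489 CPM in PS/E2H. It was at 16.1, 17.7 and 19.9 CPM in E3H and at 21.2, 18.6 and 17.7 CPM in E4H. With tau it was at 21.1, 9.99, 10.9 and 16.5 CPM in PS/E3H and at 8.73, 4.71, 18.8 and 19.4 CPM in PS/E4H. The highest of the 7 APOE2 mice was below the lowest of the 14 others, by 0.763 against 4.71 CPM, and the APOE3 and APOE4 mice overlapped. E2H was 34.3-fold below E3H (log2 fold change -5.10 ± 0.20) and E4H was 36.8-fold above E2H (5.20 ± 0.20). PS/E2H was 29.4-fold below PS/E3H (-4.88 ± 0.38) and PS/E4H was 25.9-fold above PS/E2H (4.69 ± 0.52). Without the libraries with more Ddx3y these were 5.25 ± 0.23 for E4H against E2H, -4.95 ± 0.45 for PS/E2H against PS/E3H and 4.62 ± 0.66 for PS/E4H against PS/E2H, the last of which was no longer called.

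Gm27177 was likewise low in the mice with APOE2. It was at 0.478, 0.989 and 0.578 CPM in E2H, at 10.1, 14.3 and 11.5 CPM in E3H and at 16.1, 14.5 and 9.94 CPM in E4H. With tau it was at 0.432, 0.598, 0.601 and 0.371 CPM in PS/E2H, at 14.8, 6.42, 5.45 and 13.8 CPM in PS/E3H and at 6.06, 6.51, 13.4 and 15 CPM in PS/E4H. The APOE2 mice were again below all others, with no overlap. E2H was 17.9-fold below E3H (log2 fold change -4.16 ± 0.28), and PS/E2H was 20.2-fold below PS/E3H (-4.34 ± 0.37). E4H was 20.2-fold above E2H (4.34 ± 0.31) and PS/E4H was 20.4-fold above PS/E2H (4.35 ± 0.35). Without the libraries with more Ddx3y, PS/E2H against PS/E3H was at -4.43 ± 0.44. E4H against E2H was then at 4.50 ± 0.30 and PS/E4H against PS/E2H at 4.40 ± 0.37. Counts of Gm27177 were 0.501 to 1.38 times those of Gm16867 in the 14 mice with APOE3 or APOE4 (median 0.705), and 0.759 to 2.67 times in the 7 mice with APOE2 (median 0.977), where counts were low. Over the 21 mice their log2 CPM correlated at r = 0.98, and over the 14 mice without APOE2 at r = 0.84, with shared sequence between them.

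The overlapping genes on the other strand, named after their values were seen, were also lowest with APOE2, by smaller differences. Entpd4 was at 41.3 ± 2.65 CPM in E2H, 66.7 ± 7.20 in E3H and 68.7 ± 1.76 in E4H (SD, n = 3). Entpd4b was at 45 ± 0.49 CPM in E2H, 85.4 ± 4.06 in E3H and 77.8 ± 3.0 in E4H. Summed over both, since reads of either copy cannot be told apart, the level was 86.3 ± 2.73 CPM in E2H, 152 ± 7.03 in E3H and 146 ± 4.6 in E4H. With tau the sum was 81.5 ± 6.31 CPM in PS/E2H, 127 ± 22.2 in PS/E3H and 123 ± 19.6 in PS/E4H (n = 4), and neither copy was called in a comparison of lines. The genes most like Gm16867 besides Gm27177 were Gm17081 (r = 0.95) and Gm10591 (0.94), both on chromosome 4, and those most like Gm27177 besides Gm16867 were Gm10591 (0.95) and Gm21541 (0.95). The second Nnt identifier was most like Gm26554 (0.85), Gm13301 (0.82) and Gm17081 (0.81), and the first was most like Gm45844 (0.81), Ccdc61 (0.81) and Gm29443 (0.76), all on chromosome 7.

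Capn11 (ENSMUSG00000058626; chr17:45630204-45659325, minus strand) was the member whose difference between E2H and E3H had opposite signs with and without tau. It was at 2.43, 3.96 and 2.92 CPM in E2H (183, 224 and 212 counts), at 0.380, 0.112 and 0.311 CPM in E3H and at 0.134, 0.252 and 0.538 CPM in E4H. It was at 0.417, 0.188, 0.292 and 0.185 CPM in PS/E2H, at 0.239, 3.36, 1.31 and 4.75 CPM in PS/E3H (17, 211, 82 and 333 counts) and at 0.291, 0.330, 2.03 and 0 CPM in PS/E4H (18, 20, 125 and 0 counts). Without tau all 3 E2H mice were above all 6 other mice. With tau all 4 PS/E2H mice were at or below 0.417 CPM, 3 of the 4 PS/E3H mice were above 1 CPM, and 1 PS/E4H mouse stood apart at 2.03 CPM. E2H was 11.3-fold above E3H (log2 fold change 3.50 ± 0.41), while PS/E2H was 8.82-fold below PS/E3H (-3.14 ± 0.73, not called, ranges overlapping). E4H was at -3.30 ± 0.46 against E2H, and at -3.98 ± 0.42 without the E4H library with more Ddx3y. The genes most like it were A230020J21Rik (r = 0.76), Nrk (0.71) and Matn3 (0.70). None of its 2755 windows of 50 bases occurred in another gene of the annotation.

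Tau within each line was tested next, on the same mice. In PS/E2H against E2H, 1 of the 6 identifiers tested was called, against 0.485% of all genes (0.034% lower). This was Capn11, which fell 11.3-fold (log2 fold change -3.50 ± 0.35, edgeR adjusted p = 0.00257), with 4 of 4 PS/E2H mice below all 3 E2H mice (ranges do not overlap for 11.7% of all genes). The E2H mice are those whose high level chose Capn11, so this test is not independent of the choice. Over 17 alternative settings the adjusted p was 1.16e-15 to 0.0499, and on the log2(FPKM + 1) scale the change was -0.88, under 2-fold. Without the libraries with more Ddx3y it was -3.36 ± 0.37 (adjusted p = 0.0104). The other 5 identifiers were at -0.44 to 0.11 on the log2 scale, with edgeR adjusted p of 0.482 to 0.986.

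In PS/E3H against E3H, 0 of 7 identifiers were called by edgeR (1.32% of all genes), and 2 had an unadjusted p below 0.05. Capn11 was at 3.13 ± 0.84 (adjusted p = 0.0584), with 3 of 4 PS/E3H mice above all 3 E3H mice. By DESeq2 the same difference was 3.16 (adjusted p = 0.0164). Without mouse 1 of PS/E3H, at 0.239 CPM the only 1 not above the E3H mice, edgeR gave 3.51 (adjusted p = 0.0026). The low E3H level is part of the difference that chose Capn11, so these tests are not independent of the choice. The range of the adjusted p over 16 alternatives was 0.0026 to 0.358. In PS/E4H against E4H, 0 of 7 were called by edgeR (2.98% of all genes) and 1 had an unadjusted p below 0.05. Capn11 was at 1.09 ± 1.13 (adjusted p = 0.569) and, without mouse 3 of PS/E4H, at -0.58 (adjusted p = 0.749).

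The interaction asks whether the tau difference itself differed between lines. For Capn11 it was -6.63 ± 1.01 on the log2 scale for E2H minus E3H (2 SE on either side, -8.66 to -4.61) and 4.59 ± 1.28 for E4H minus E2H. Both contain the E2H level that chose the gene, so they are given as a description, with no p. Without mouse 1 of PS/E3H, edgeR gave -7.02 for the former. Over 23 alternatives of the former, Capn11 stayed short of the threshold in 21 and passed it in the others, so the outcome depended on the setting. For E4H minus E3H, Capn11 was at -2.06 ± 1.5 (edgeR adjusted p = 1.0). With all mice, no member passed any of the 3 interactions by edgeR, nor did any gene at all (0.0%), although 1265, 847 and 2223 genes had an unadjusted p below 0.05 for E2H against E3H, E4H against E3H and E4H against E2H. DESeq2 called 11, 8 and 115 genes in them.

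Wdfy1 was at 0.65 ± 0.27 on the log2 scale in PS/E4H against E4H (edgeR adjusted p = 0.137). This value rested on the PS/E4H pair at 33.8 and 38.2 CPM. Without the 4 libraries with more Ddx3y than Xist, a setting chosen after seeing the data, the difference was 1.06 ± 0.12 (edgeR adjusted p = 0.00935). That fit held 2 mice of each group. The low level of the E4H mice is what chose Wdfy1, so these tests are not independent of the choice. The adjusted p ranged from 0.00935 to 0.394 over 17 alternatives. Sex of the mice, as these counts give it, moved with the Wdfy1 level in PS/E4H and not in E4H, and its part in the result was not tested.

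With all 21 mice in 1 fit and the line as a term, 21% of all genes passed an adjusted p of 0.05 for tau, at any fold, 11.4% higher and 9.63% lower. Of the 7 identifiers, 1 passed, a smaller share than over all genes. This was Dctd, 1.23-fold lower with tau (log2 fold change -0.30 ± 0.08, edgeR adjusted p = 0.00594). Its mean was lower in 3 of 3 lines, at -0.36, -0.31 and -0.25 on the log2 scale in E2H, E3H and E4H, none of which passed alone (adjusted p = 0.482, 0.192 and 0.288). The 4 PS/E3H mice were all below the 3 E3H mice and the 4 PS/E4H mice all below the 3 E4H mice, while PS/E2H and E2H overlapped. Ranges that do not overlap were found for 19.3% and 28.8% of all genes in the E3H and E4H comparisons. The pooled result passed under all 30 alternatives, with an adjusted p of 0.000569 to 0.0287. The levels of the parental mice are part of the line differences that chose Dctd, so neither this test nor its alternatives are independent of the choice.

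Wdfy1 was at 0.30 ± 0.12 for tau over the 3 lines (edgeR adjusted p = 0.0832). It passed at 0.38 ± 0.10 without the 4 libraries with more Ddx3y (adjusted p = 0.0186) and at 0.34 ± 0.12 without mouse 4 of PS/E4H (adjusted p = 0.0422), in a range of 0.0186 to 0.217 over 30 alternatives. Nnt summed over both identifiers was at 0.02 ± 0.07 (adjusted p = 0.891), and within lines at -0.12, 0.03 and 0.14 in E2H, E3H and E4H (adjusted p = 0.731, 0.942 and 0.484). Gm16867 was at -0.35 ± 0.22 and Gm27177 at -0.35 ± 0.20, with adjusted p of 0.291 and 0.252.

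Some panels of cell markers moved with tau beside these results. Each value is a sum over a panel, so a rise can rest on a single gene of it. A panel of 5 astrocyte markers summed to 203 to 258 FPKM in the 9 parental mice and to 419 to 798 FPKM in the 12 PS mice. A panel of 5 microglia markers summed to 48.7 to 58.8 FPKM in the parental mice and 50.3 to 93.0 FPKM in the PS mice, and the neuron panel to 700 to 800 and 582 to 754 FPKM. The oligodendrocyte panel was at 577 to 669 FPKM in E3H and 745 to 839 in PS/E3H, at 640 to 756 in E4H and 808 to 1060 in PS/E4H, and at 748 to 773 in E2H and 628 to 839 in PS/E2H. The blood panel was at 235 to 950 FPKM in the parental mice and 34.2 to 464 in the PS mice. Other panels overlapped: endothelium was at 26.1 to 36.8 FPKM in the parental mice and 23.3 to 39.0 in the PS mice. Choroid plexus was at 319 to 557 FPKM in the parental mice and 287 to 875 in the PS mice. None of these markers was at 0 in every mouse of a group. Their part in the tau results was not tested.

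**Figure D4:**
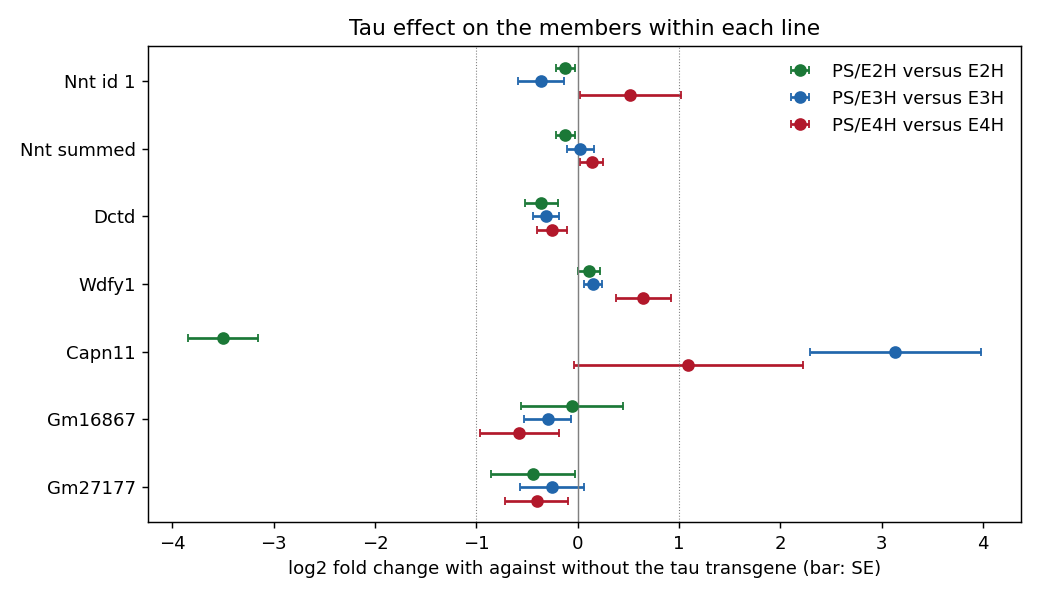
Log2 fold change with against without the tau transgene (x axis) for each identifier or sum (y axis), in the APOE2, APOE3 and APOE4 lines, with bars for 1 SE and dotted lines at 2-fold. Capn11 is at -3.50 in E2H, 3.13 in E3H and 1.09 in E4H, Dctd is at -0.36, -0.31 and -0.25, and every other point lies within 2-fold of 0; the second Nnt identifier is not drawn.

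The genes around the members were examined to see whether they followed the same line pattern. Within 1 Mb of each locus, 0 of the genes tested were called in any of the 6 comparisons of lines, where 0.0197 to 0.187% of all genes were called: 18 to 21 genes near Nnt, 8 to 11 near Dctd, 11 to 12 near Wdfy1, 43 to 44 near Capn11 and 39 to 42 near Gm16867 and Gm27177. The median absolute log2 fold change of the neighbours was 0.13 to 0.37 near Nnt, 0.07 to 0.20 near Dctd, 0.08 to 0.20 near Wdfy1, 0.11 to 0.20 near Capn11 and 0.11 to 0.25 near the Gm genes. Over all genes it was 0.11 to 0.19. For so few neighbours, 0 calls is near the share over all genes. The members were chosen for their line differences, so a contrast between them and their neighbours was set by the choice and is a description. Paip1, 19604 bases from Nnt, was at -0.07 to 0.14 over the 6 comparisons, and Mrpl44, which overlaps Wdfy1 by 126 bases, at -0.13 to 0.25. Near Dctd, Tenm3 ranged from -0.58 to 0.58 and Wwc2 from -0.30 to 0.06. Tmem63b, 846 bases from Capn11, ranged from -0.23 to 0.05. At the Gm locus, Entpd4b was at -0.93 ± 0.08 and Entpd4 at -0.70 ± 0.10 in E2H against E3H, under the 2-fold limit. In PS/E2H against PS/E3H they were at -0.51 ± 0.12 and -0.80 ± 0.16, so both were also lower with APOE2. Loxl2, which overlaps Gm27177, was at -0.14 ± 0.38 in E2H against E3H. The largest single value was Gm27176, at -6.49 in E2H against E3H, with 13 counts at most in a mouse.

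**Figure D5:**
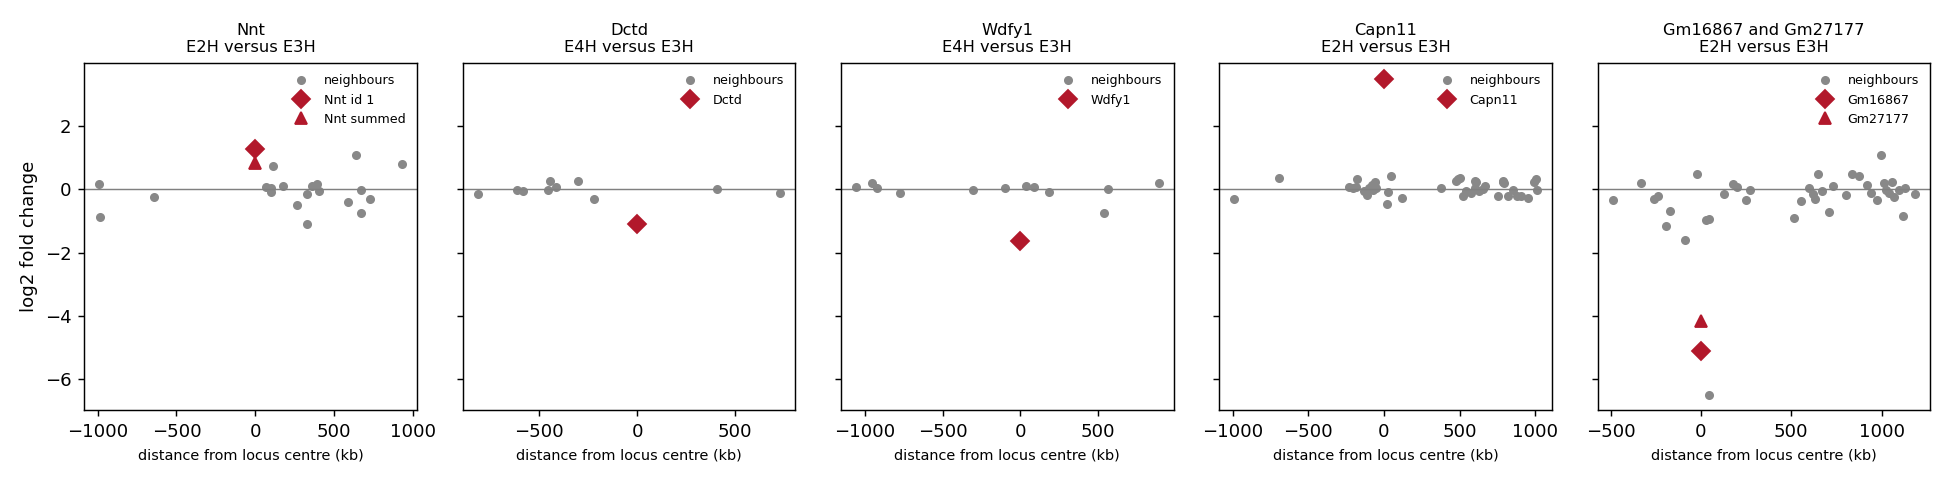
Log2 fold change (y axis) of the members (red) and of the tested genes within 1 Mb (grey) against distance from the centre of the locus in kb (x axis), in 1 comparison of lines per locus. The members stand away from most neighbours, but they were chosen for such line differences, so this is a description. The median absolute change of the neighbours is 0.07 to 0.37 over the loci and the 6 comparisons. The grey point at -6.49 beside the Gm genes is Gm27176, with 13 counts at most.

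Other genes of the members' pathways were counted from lists. The lists were chosen with earlier results of these data known, so the counts are a description. In a list of 23 genes of mitochondrial NADPH supply and peroxide handling, which holds partners of Nnt, 0 were called in the 6 comparisons, and 0 is near the 0.0197 to 0.187% of all genes called there. The list's median log2 fold change was -0.12 to 0.10, against -0.01 to 0.00 over all genes. The same was true of 22 genes of deoxypyrimidine metabolism (-0.05 to 0.07), 22 genes of TRIF signaling and FYVE domain proteins (-0.11 to 0.12) and 11 to 12 tested genes of the 15 calpains and their regulators (-0.09 to 0.07). For tau over the 3 lines, 8 of the 23 NADPH genes passed and were higher and 2 were lower, beside 11.4% higher and 9.63% lower of all genes, among them Idh2, the mitochondrial NADPH-forming isocitrate dehydrogenase (0.52 ± 0.07, edgeR adjusted p = 1.75e-05). G6pdx, the first enzyme of the pentose phosphate pathway, rose by 0.46 ± 0.06 (adjusted p = 5.21e-06). Of the deoxypyrimidine genes 2 of 22 passed, both higher, a smaller share than over all genes. Nme2 and Upp1, named for their p within lines, were at 0.21 ± 0.08 (adjusted p = 0.0523) and 0.36 ± 0.14 (adjusted p = 0.0757) for tau over the 3 lines.

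The TRIF and FYVE list held the most calls with tau. It too was chosen with earlier results of these data known, so its counts are no independent test. In E2H, E3H and E4H, 1, 2 and 5 of its 22 genes were called, all higher (0.451, 1.2 and 2.4% of all genes), and over the 3 lines 11 passed and were higher and 1 was lower, beside the same 11.4 and 9.63% of all genes. Cd14, a co-receptor of TLR4, rose in all 3 lines, by 1.61 ± 0.23, 1.71 ± 0.25 and 2.01 ± 0.20 (edgeR adjusted p = 0.0153, 0.00641 and 0.000285). Ticam2, an adaptor that bridges TLR4 to TRIF, rose in E3H by 1.38 and in E4H by 2.09 (adjusted p = 0.0198 and 0.000882) and was at 1.17 in E2H (adjusted p = 0.0948). Tlr4, Irf7 and Wdfy4 were called in E4H alone, at 1.18, 1.49 and 1.13, and Irf7 was at 1.94 in E2H (adjusted p = 0.0552). None of the 3 passed an interaction: the edgeR adjusted p was 1.0 for each in E4H against E3H, and 0.331, 0.819 and 0.813 in E4H against E2H. Of the 13 calpain genes tested over the 3 lines, 3 were higher and 2 lower, again beside 11.4 and 9.63% of all genes, among them Capn2 (0.38 ± 0.04, adjusted p = 4.57e-07) and Capns1, the small subunit shared by the classical calpains (0.26 ± 0.05, adjusted p = 0.000856).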

How the data were processed

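The authors trimmed reads with Cutadapt, aligned them to mouse GRCm38.p5 with HISAT2, assembled and quantified transcripts with StringTie, gffcompare and ballgown, and deposited raw counts per gene and FPKM per gene. Versions of these tools are not given in the sources used here. Members and lists were chosen with earlier results of these data known. Counts were analysed with edgeR 4.0.16 and limma 3.58.1 in R 4.3.3 (TMM factors, filterByExpr with a minimum count of 10 and a minimum total of 15, quasi-likelihood F test), each comparison on its own mice. Calls needed a Benjamini-Hochberg adjusted p below 0.05 over all genes tested and a fold change of at least 2. Interactions of line and tau, and the tau term over the 3 lines, needed the adjusted p only. CPM used TMM factors over the 21 mice, and log2 CPM a prior count of 2. The total counts per mouse limit precision, and p-values measure the spread between mice of a group. The deposited FPKM served for levels between genes and for limma on log2(FPKM + 1) and log2(FPKM + 0.1). Alternatives were DESeq2 1.42.0, no filter, a replicate block, 1 fit of all 6 groups, each mouse left out and, added after seeing the data, all libraries with more Ddx3y than Xist left out. Fits were tested on simulated data. Named genes were the members, the 3 most correlated genes of each, neighbours within 1000000 bases called between lines (none was), and list genes called in any comparison or else the 2 with the smallest adjusted p. GENCODE M21 named 55141 of the 55401 identifiers and gave positions and transcript sequences, which were compared in windows of 50 bases over all transcripts. Figures were drawn in Python 3.11.15.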

Additional observations from a re-analysis of the deposited data

Results flagged for a closer look

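In 3 of the 23 groups of 4 mice examined, 1 mouse stood farther from the other 3 than Dixon's 95% limit allows, where chance gives about 1 in 20. The first Nnt identifier was at 30.9 CPM in mouse 2 of PS/E2H, below the other 3 at 35.5 to 36.4 CPM. Nnt summed over both identifiers gave the same value, 30.9 CPM, for that mouse, since the second identifier had no counts there, so these are 1 observation. Mouse 2 of PS/E2H is also the library of its group with more Ddx3y than Xist. Capn11 was at 2.03 CPM (125 counts) in mouse 3 of PS/E4H, against 0, 0.291 and 0.330 CPM in the other 3.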

How the results depend on the processing

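Of 556 alternative values for 31 results on single genes, 462 kept direction and side of the threshold, 86 no longer passed, 7 newly passed and 1 changed direction. That 1 was Capn11 in PS/E4H against E4H, which ran from -0.58 to 1.76 with mice left out in turn and was -0.58 without mouse 3 of PS/E4H.

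The number of members called changed as follows, and the causes were not tested. On log2(FPKM + 1), log2(FPKM + 0.1) and log2(FPKM + 1) with a filter, limma called 1, 2 and 2 in E2H against E3H (5 by edgeR), 1, 1 and 1 in E4H against E3H (2), 2, 3 and 3 in E4H against E2H (5), 0, 0 and 0 in PS/E4H against PS/E3H (1), and 0, 1 and 0 in PS/E4H against PS/E2H (3). On log2(FPKM + 1) it called 0 in PS/E2H against PS/E3H (3), and unfiltered and filtered 0 in PS/E2H against E2H (1). DESeq2 called 5 in PS/E2H against PS/E3H, 5 in PS/E4H against PS/E2H, 1 in PS/E3H against E3H and 1 for the tau effect in E2H against E3H (0 by edgeR in the last 2). With Nnt summed, 3 were called in E2H against E3H, where the sum is 1 unit in place of 2. A fit of all 6 groups called 2 there and 2 in PS/E4H against PS/E3H. With no filter 0 were called in the latter. Without the libraries with more Ddx3y the counts were 4 in E4H against E2H, 0 in PS/E4H against PS/E3H, 1 in PS/E4H against PS/E2H, 1 in PS/E4H against E4H and 2 for tau over the 3 lines.

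With mice left out in turn the counts were 4 to 5 (E2H against E3H), 1 to 3 (E4H against E3H), 3 to 5 (E4H against E2H), 2 to 4 (PS/E2H against PS/E3H), 0 to 0 (PS/E4H against PS/E3H), 2 to 3 (PS/E4H against PS/E2H), 1 to 1 (PS/E2H against E2H), 0 to 1 (PS/E3H against E3H), 0 to 0 (PS/E4H against E4H), 0 to 1 (tau effect in E2H against E3H), 0 to 0 (the other interactions) and 1 to 2 (tau over the 3 lines). Dctd kept its call in 0 of 8 such fits in PS/E4H against PS/E3H, 2 of 8 in PS/E4H against PS/E2H, 2 of 6 in E4H against E2H (without mouse 2 or 3 of E2H) and 4 of 6 in E4H against E3H (lost without mouse 1 or 2 of E3H). Capn11 kept it in 1 of 6 in E4H against E2H (without mouse 3 of E4H) and 5 of 6 in E2H against E3H (lost without mouse 3 of E3H). The first Nnt identifier kept it in 3 of 8 in PS/E2H against PS/E3H. The other called differences between lines kept theirs in every such fit.

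No source says that a replicate number marks a litter or batch. Same-numbered mice correlated at -0.12 to 0.10, and 0 of 9 comparisons had every pair over 0.1, although in PS/E2H against E2H all 3 pairs (0.019 to 0.095) correlated best with their own number. With the replicate block, 4 were called in E2H against E3H, 1 in E4H against E3H, 4 in E4H against E2H, 3 in PS/E2H against PS/E3H, 0 in PS/E4H against PS/E3H, 2 in PS/E4H against PS/E2H, 1 in PS/E2H against E2H, 0 in PS/E3H against E3H, PS/E4H against E4H and the interactions, and 1 for tau over the 3 lines. A planned fit with only mice of 1 sex could not be run, since 17 of the 21 libraries had more Xist and the stated sexes did not match. Low counts limit Capn11 and, in APOE2 mice, Gm16867 and Gm27177.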
